A study of Mus musculus with 6 samples.

Results

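The insulin-like growth factor (IGF) axis of the fetal mouse ovary was described through 10 genes chosen by name: the ligand gene Igf1, the receptor genes Igf1r and Insr, the substrate genes Irs1 and Irs2, and the binding protein genes Igfbp2, Igfbp3, Igfbp4, Igfbp5 and Igfbp7. Every transcript whose gene name was one of these was taken, and its counts were summed per gene in each pool. These 10 genes were 10 of 35974 gene names, and they held 41 of the 114412 transcripts in the count table. All 10 genes passed the filter on low counts, as did 19435 genes in all. Of their 41 transcripts, 31 were among the 51227 transcripts tested, and 2 had no count in any pool.

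IGF1 is a secreted growth factor that binds the receptor tyrosine kinase IGF1R, and, with lower affinity, the insulin receptor INSR. The activated receptor phosphorylates the docking proteins IRS1 and IRS2, which pass the signal to phosphatidylinositol 3-kinase (PI3K) and AKT and so to protein synthesis, growth and survival. Most of the extracellular ligand is held by binding proteins, which extend its half-life, keep it from the receptor or release it locally when they are cleaved. In the ovary this axis is best known for its action on granulosa and theca cells of growing follicles, a stage that the fetal ovary has not reached.

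The study exposed pregnant C57Bl6j mice to panobinostat (PB), an inhibitor of histone deacetylases, and collected the embryonic ovaries. PB was given at 5 mg/kg from embryonic day 6.5 (E6.5) to E15.5, when ovaries were taken. The labels describe a daily dose, while the study's methods describe dosing by gavage on alternate days, with vehicle (DMSO and water) for controls. PolyA RNA of 3 control and 3 PB pools of ovaries was sequenced. All 6 pools were of the same strain, and PB was the only agent that differed between the groups. The labels give 4 ovaries to a pool, the design text 6 to 8 and the methods a minimum of 8, and none of them says whether the pools came from separate litters. The p-values below measure the spread between these pools, which may be partly technical.

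Total counts were between 97165644 and 125985399 per pool. Levels within a gene are given as counts-per-million (CPM) with TMM factors, and levels between genes as transcripts-per-million (TPM), in which each transcript's count was divided by its exon length. The ovarian label was checked against markers: the pregranulosa gene Foxl2 was at 155 CPM ± 10.1 (SD, n = 3) in control and 154 ± 16.3 in PB pools, and the germ cell gene Ddx4 at 114 ± 21.4 and 111 ± 29.2. The 6 germ cell markers summed to between 508 and 698 CPM in control and between 436 and 764 CPM in PB pools. Of these 6, Pou5f1 and Dppa3 had an unadjusted p under 0.05 in edgeR, with log2 fold changes of -0.58 and -0.52 and an FDR of 0.888 each, while Sycp3 was at 0.34 with an FDR of 0.888. The 4 surface epithelium markers summed to between 206 and 274.3 CPM in the controls and between 274.4 and 350 CPM in PB pools, with no overlap. Taken singly, 1 of the 4, Lrrn4, had groups that did not overlap, where 10.7% of all genes tested did not. Among the sums of the marker lists, that of the red blood cells varied most, from 7849 to 22290 CPM among the control pools. In these bulk samples, fewer cells of a type and less RNA per cell cannot be told apart. TPM values were higher in PB pools for most genes, by a median of 0.11 on the log2 scale over the genes tested, against 0.00 for CPM, so differences between groups were read from the TMM-scaled counts.

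Measured per length, the highest levels among the 10 genes in the E15.5 ovary were those of binding proteins. The ligand gene Igf2, which is not among the 10, was higher still, with means of 1039 TPM in control and 1193 TPM in PB pools. Of the 10, Igfbp5 had the highest level, with a mean of 586 TPM over the 6 pools, followed by Igfbp4 at 453 TPM and Igfbp2 at 273 TPM. These lay far above Igfbp3, with a mean of 56.9 TPM. Next came the ligand Igf1 at 30.9 TPM, Igfbp7 at 27.8 TPM, and the receptor Igf1r at 21.8 TPM. The lowest TPM levels were those of Irs1 (13.97), Insr (10.3) and Irs2 (5.21). Neighbours in this order had TPM ranges over the pools that did not overlap, with one exception, Igf1 and Igfbp7. Igf1 ranged from 27.5 to 35.3 TPM and Igfbp7 from 24.2 to 33.0 TPM, and Igf1 was the higher of the pair in 5 of 6 pools.

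**Figure D1:**
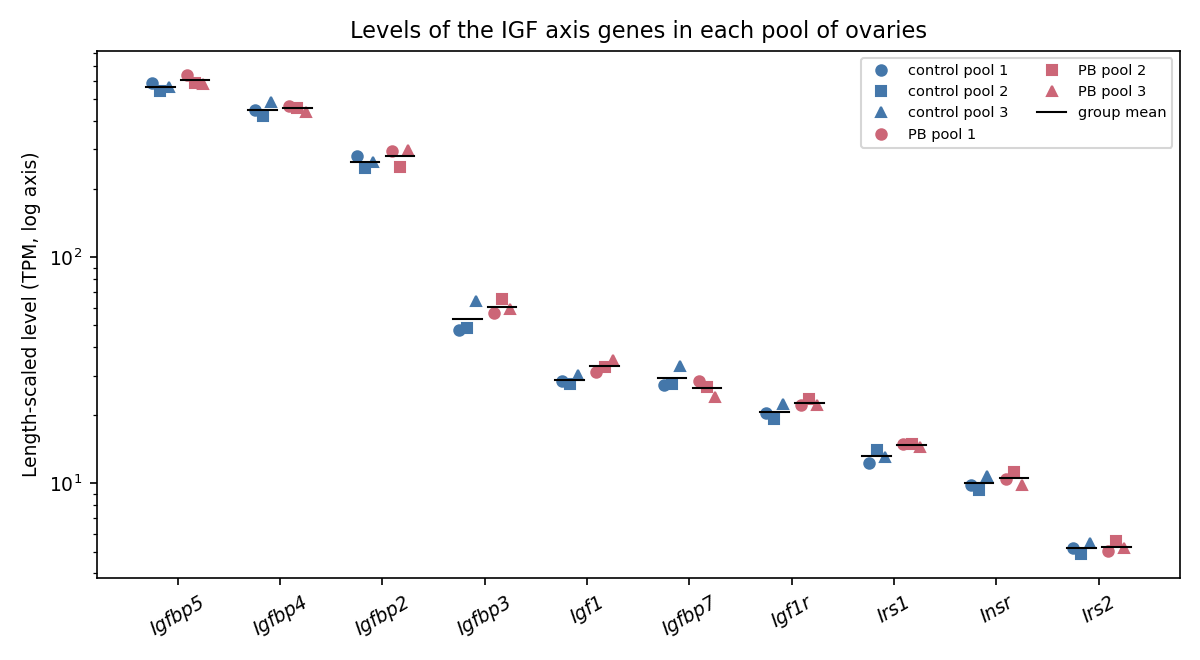
Length-scaled level (TPM, log axis) of each IGF axis gene in every pool, ordered by the mean over the 6 pools, with control pools in blue, PB pools in red, and a black line at each group mean. The genes run from Igfbp5 at 586 TPM to Irs2 at 5.21 TPM, and within a gene the highest pool was at most 1.37 times the lowest.

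No gene of the axis differed between PB and control pools at the thresholds used, set at a change of 2-fold or more with a false discovery rate (FDR) no higher than 0.05 in edgeR's quasi-likelihood test. The count was 0 of 10 genes, against 0.0154% of all genes tested. By DESeq2's Wald test 0 of 10 were called as well. At an unadjusted p under 0.05, which 4.46% of all genes reached, 1 of 10 genes passed, Igfbp7. The log2 fold changes of the 10 genes had a median of -0.02, beside 0.00 for all genes tested. Their median absolute size was 0.08, beside 0.10 for all genes. FDR values ran from 0.888 to 0.968. The 95% intervals of the 10 gene sums, which rest on the spread between these pools, all lay within 1.5-fold in either direction. They ran from 0.718-fold at the lowest bound to 1.29-fold at the highest. For Irs1 the estimate depended on its assembled transcripts. With annotated transcripts only, its log2 fold change was -0.50, with an unadjusted p of 0.361 in edgeR.

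**Figure D2:**
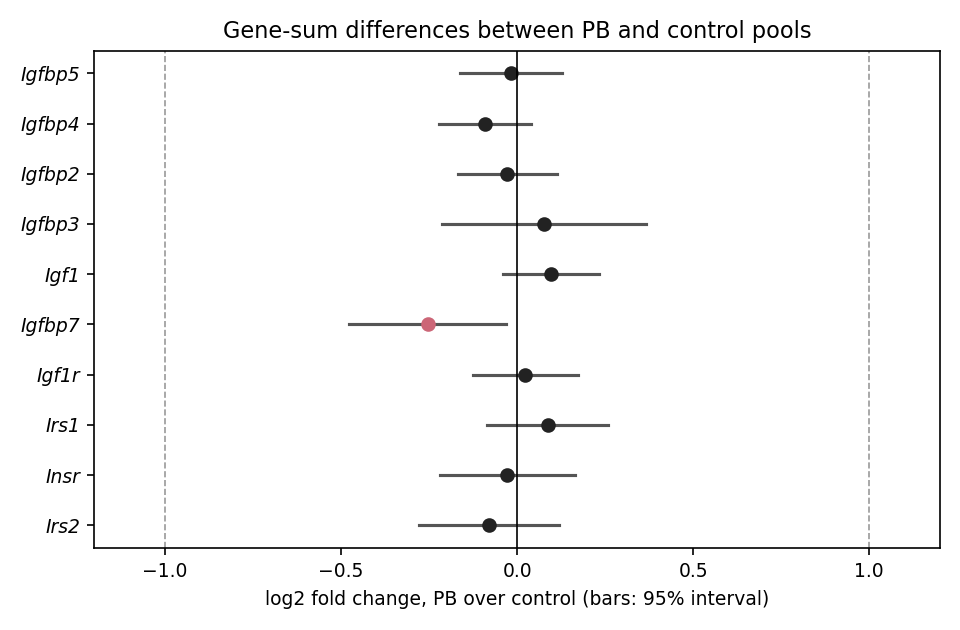
Log2 fold change of the gene sums, PB over control, with dashed lines at the 2-fold threshold. Bars are 95% intervals computed from the F statistic of edgeR's quasi-likelihood test. Igfbp7, in red, is the 1 gene of 10 whose interval leaves out 0, and no interval reaches a dashed line.

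The ligand gene Igf1 lies on the forward strand of chromosome 10 (chr10:87858265-87937047, mm10). Its gene sum was 137, 143 and 139 CPM in control pools 1 to 3 and 139, 152 and 157 CPM in PB pools 1 to 3. PB pools 2 and 3 were above every control pool, while PB 1 lay within the control range. The log2 fold change was 0.10 (SE 0.06, 95% interval -0.04 to 0.23), with an unadjusted p of 0.141 and an FDR of 0.888 in edgeR. In TPM, the Igf1 groups did not overlap, at 27.5 to 30.3 in control and 31.2 to 35.3 in PB, and neither did those of Irs1. These were 2 of 10 genes, where 15.7% of all genes tested had TPM ranges that did not overlap, with the median shift in TPM given above.

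Igf1 is transcribed from alternative leader exons and spliced to alternative ends, and both change the precursor rather than the mature hormone. Transcripts with the class 1 leader splice from position 87859412 to the shared exon at 87864731, and those with the class 2 leader from 87861385. A 52-base exon near the 3′ end (chr10:87915298-87915349, forward strand, GRCm38) sets the Eb form apart from the Ea form of the E peptide, which is cleaved from the precursor. It is coding in GENCODE and its length is not a multiple of 3, so that it shifts the reading frame of the exon after it. This exon is shown because its inclusion is the measure that follows.

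Igf1 Eb exon: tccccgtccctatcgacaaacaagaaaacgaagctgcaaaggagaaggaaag

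Transcripts holding this exon made up 24.6%, 23.6% and 22.7% of the length-scaled Igf1 level in control pools 1 to 3, and 23.0%, 33.1% and 29.3% in PB pools 1 to 3. PB pools 2 and 3 were higher than the controls and PB 1 was among them. The means were 23.6% ± 0.984 (SD, n = 3) and 28.5% ± 5.06, and the exact two-sided permutation p was 0.3. The class 1 leader varied more, from 39.2% to 77.2% among control pools and from 46.8% to 60.3% among PB pools. The class 2 leader ranged from 16.1% to 59.0% in control and from 35.6% to 48.5% in PB pools. The control range held every PB value for both leaders, with exact permutation p of 0.6 and 0.7. A total of 4 classes of transcript of Igf1 and Insr were compared, the adjusted p was 0.7 for each, and 3 pools against 3 cannot give an exact p below 0.1.

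Single Igf1 transcripts changed places between pools of the same group. NM_001314010.1 held 2619, 4090 and 0 counts in control pools 1 to 3 and 4648, 12 and 5123 in PB pools 1 to 3. Its counts were thus close to absent in one pool of each group, and its log2 fold change of 0.56 had an SE of 2.55. NM_001111276.1 held 2718, 1226 and 4090 counts in control and 3037, 4491 and 4798 in PB pools. NM_001111275.2, the transcript with the largest share of Igf1 counts in controls, held 4883, 7524 and 4317 counts in control and 2976, 5416 and 3042 in PB pools. The groups overlapped for all 3 transcripts. The assembler divides the reads of a locus among transcripts that share most of their exons, so these counts are estimates with an error of their own, and their part in the spread was not tested.

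**Figure D3:**
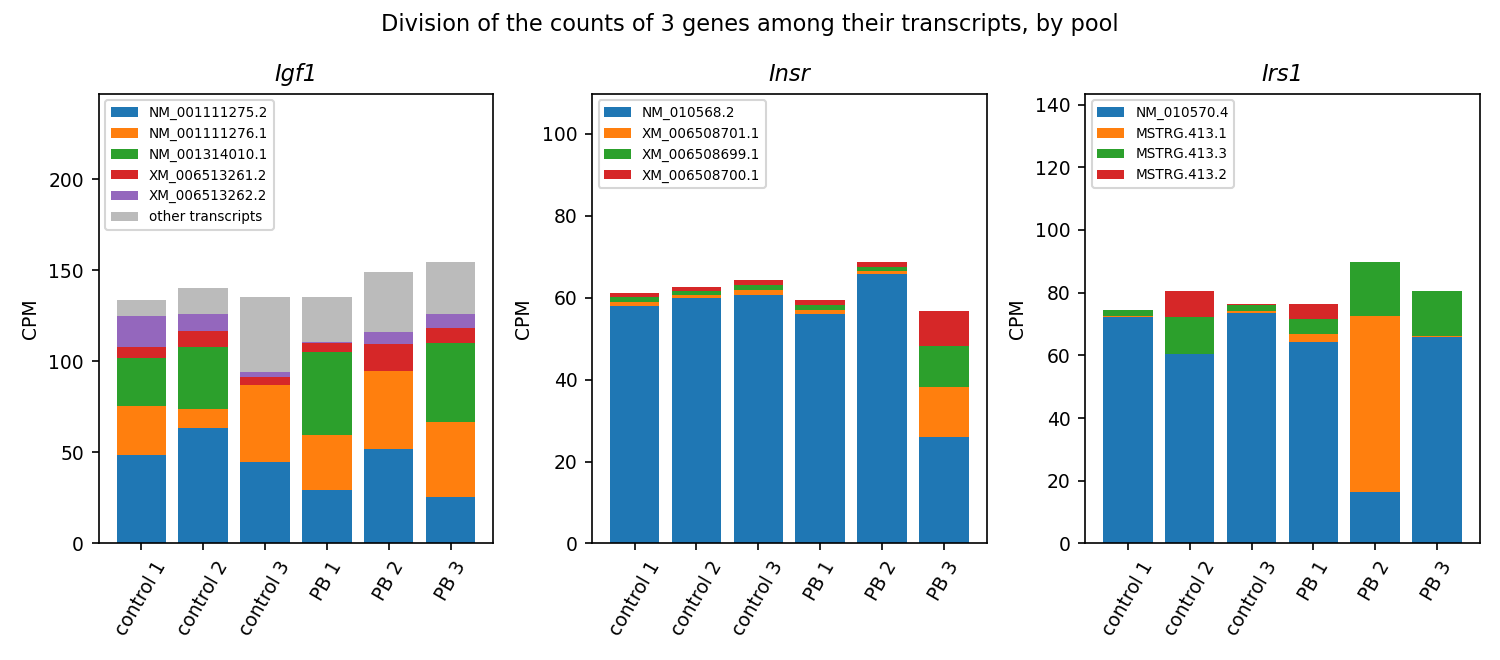
CPM of each gene's transcripts, stacked, in every pool for Igf1 (the 5 most abundant transcripts and the rest in grey), Insr and Irs1. The height of the stack changes little between pools while its division does: in Insr the colours shift in PB 3, and in Irs1 in PB 2.

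The receptor genes Igf1r (chr7:67951833-68233668, forward strand) and Insr (chr8:3150922-3279649, reverse strand) encode related tyrosine kinases that can also pair as hybrids. Igf1r was at 167, 169 and 177 CPM in the controls and 166, 188 and 167 CPM in PB pools. PB pools 1 and 3 lay just below the lowest control and PB 2 above the highest. Its log2 fold change was 0.02 (SE 0.06, FDR 0.955 in edgeR). Insr was at 62.6, 63.7 and 65.9 CPM in the controls and 60.8, 70.2 and 57.6 CPM in PB pools, so that PB 2 was again highest and PB 3 lowest. The log2 fold change was -0.03 (SE 0.08, FDR 0.958). The ratio of Igf1r to Insr, in TPM, was 2.08 ± 0.0119 (SD, n = 3) in control and 2.16 ± 0.0899 in PB pools, and lay between 2.07 and 2.26 in every pool.

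Insr is spliced with or without exon 11, which gives isoform B, selective for insulin, or isoform A, which also binds IGF2 with high affinity and is the form typical of fetal tissue. Exon 11 (chr8:3181702-3181737, reverse strand, GRCm38) has 36 bases, adds 12 codons without shifting the frame, and is shown because it defines the classes compared.

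Insr exon 11: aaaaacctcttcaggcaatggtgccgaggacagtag

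Of 4 Insr transcripts, 2 hold this exon. They made up 3.71%, 2.80% and 3.73% of the length-scaled Insr level in control pools 1 to 3, and 4.07%, 2.95% and 32.6% in PB pools 1 to 3. By these estimated counts, almost all of Insr in the other pools was without exon 11, and PB 3 stood apart. The part of the assembler's division of reads among the Insr transcripts in these shares was not tested. In PB 3 the counts of the exon 11 transcripts were 2191, beside 209 to 247 in the other pools. A transcript without the exon, XM_006508701.1, was also higher in PB 3, at 1425 counts against 95 to 112 elsewhere, and NM_010568.2, the main Insr transcript, was lower there, at 3078 counts. The mean share with exon 11 was 13.2% ± 16.8 (SD, n = 3) in PB pools and 3.51% without PB 3, beside 3.41% ± 0.533 in control pools, and the exact permutation p was 0.4.

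The docking protein genes Irs1 (chr1:82233105-82291439, reverse strand) and Irs2 (chr8:10986961-11008430, reverse strand) carry the signal of both receptors. Irs1 was at 76.3, 82.0 and 78.2 CPM in the controls and 77.9, 91.7 and 81.6 CPM in PB pools, with the groups overlapping. Its log2 fold change was 0.09 (SE 0.07, FDR 0.888 in edgeR). Irs2 was at 14.02, 14.2 and 14.4 CPM in the controls and 12.5, 14.9 and 12.9 CPM in PB pools. PB pools 1 and 3 were below the controls and PB 2 above them, and the log2 fold change was -0.08 (SE 0.08, FDR 0.893). Irs1 exceeded Irs2 in every pool, by 2.38 to 2.96 times in TPM.

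Irs1 was the one gene of the axis for which a transcript not in the annotation held a large part of the counts. The assembled transcript MSTRG.413.1 had 14, 15 and 50 counts in control pools 1 to 3 and 254, 5847 and 19 in PB pools 1 to 3. PB 2 alone was far above the others, and PB 3 lay within the control range. The annotated transcript NM_010570.4 had 7270, 7173 and 7109 counts in control and 6507, 1722 and 7777 in PB pools, so that it was lowest in the same PB 2 pool. Another assembled transcript, MSTRG.413.3, held 212, 1401 and 197 counts in control and 498, 1800 and 1684 in PB pools, with the groups overlapping. The edgeR fit gave MSTRG.413.1 a log2 fold change of 6.22 (SE 2.35), a p of 0.0442 and an FDR of 1.00, and without PB 2 the log2 fold change was 2.35 with a p of 0.165. DESeq2's Wald test called it, with an FDR of 0.0271. The sum over all Irs1 transcripts in PB 2 was not lower for this, at 91.7 CPM. Among the alternatives run, the log2 fold change of the Irs1 sum turned negative where assembled transcripts were left out, at -0.50 with an unadjusted p of 0.361.

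The binding protein genes had summed levels of 1365 TPM ± 64.8 (SD, n = 3) in control and 1429 TPM ± 52.2 in PB pools. Igfbp4 and Igfbp5 together made up 74.6% ± 0.215 of this sum in control and 74.2% ± 1.27 in PB pools. Igfbp2 held 19.4% ± 0.784 and 19.7% ± 1.59, and Igfbp3 held 3.91% ± 0.573 and 4.24% ± 0.437. The composition of the binding proteins was therefore alike within a few percent of the sum across the 6 pools. Igfbp7 had the smallest share, at 2.14% ± 0.191 in control and 1.85% ± 0.106 in PB pools.

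Igfbp5 (chr1:72858065-72874865, reverse strand), whose product binds to extracellular matrix, was at 2318, 2310 and 2164 CPM in the controls and 2315, 2284 and 2112 CPM in PB pools. Pool 3 was lowest in each group, the groups overlapped, and the log2 fold change was -0.02 (SE 0.06, FDR 0.968 in edgeR). Igfbp4 (chr11:99041260-99052646, forward strand), whose product holds IGFs until it is cleaved by pappalysins, was at 626, 631 and 656 CPM in the controls and 598, 631 and 567 CPM in PB pools. PB pools 1 and 3 were below the controls and PB 2 was among them, and PB differed from control by -0.09 on the log2 scale (SE 0.05, FDR 0.888). Igfbp3 (chr11:7206086-7214081, reverse strand), the main carrier of IGFs in serum, was at 78.7, 86.5 and 103 CPM in the controls and 85.9, 107 and 90.1 CPM in PB pools. The groups overlapped, and its log2 fold change of 0.08 had the largest SE of the 10 genes, 0.12 (FDR 0.919). Assembled antisense transcripts carried the names of Igfbp4 and Igfbp5 and were part of their sums, at 0.109% of the counts of Igfbp4 and, for 2 such transcripts, 0.0454% and 0.0366% of those of Igfbp5.

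Igfbp7 (chr5:77349240-77408045, reverse strand) encodes a secreted protein that binds IGFs weakly and is best known from blood vessel walls. It was at 20.6, 22.3 and 24.2 CPM in control pools 1 to 3 and 19.6, 19.9 and 16.9 CPM in PB pools 1 to 3. The PB pools were all below the controls, with PB 3 the lowest, although control 1 lay less than 1 CPM above PB 2. Igfbp7 was the 1 gene of 10 whose CPM groups did not overlap, where 10.7% of all genes tested did not. Its means were 22.4 CPM ± 1.80 (SD, n = 3) and 18.8 CPM ± 1.67. The log2 fold change was -0.25 (SE 0.09, 95% interval -0.48 to -0.03), or 0.839-fold, with an unadjusted p of 0.0315 and an FDR of 0.888 in edgeR, so that it did not pass. The unadjusted p was 0.102 without control 3, 0.0881 without PB 3 and 0.0657 without control 2, and the log2 fold change stayed between -0.31 and -0.18 when any pool was left out. In TPM, the ranges of the groups overlapped.

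Endothelial markers were measured beside Igfbp7. The 4 markers (Pecam1, Cdh5, Kdr and Emcn) summed to between 288 and 316 CPM in the controls and between 280 and 294 CPM in PB pools, with overlap. Of the 4, 3 had a negative log2 fold change, and the list ran from -0.17 to 0.06, and none had an unadjusted p under 0.05. Interstitial markers summed to between 2803 and 3334 CPM in the controls and 2738 and 3273 CPM in PB pools. The part of these cell types in the level of Igfbp7 was not tested.

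Igfbp2 (chr1:72824480-72852474, forward strand) encodes a secreted binding protein that is abundant in fetal tissues, and it neighbours Igfbp5 on chromosome 1, on the opposite strand. Its gene sum was 253, 241 and 229 CPM in the controls and 241, 222 and 246 CPM in PB pools. The groups were interleaved, and the log2 fold change was -0.03 (SE 0.06, FDR 0.937 in edgeR). Beneath this sum, the minor of its 2 transcripts had groups of pools far apart.

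The 2 Igfbp2 transcripts start 907 bases apart. NM_008342.3 starts at 72824480 and has a first exon that ends at 72824964. NM_001310659.1 starts at 72825387, inside the first intron of the other and 422 bases after the end of its first exon. Its own first exon of 88 bases is followed by the same 3 exons. In GENCODE the second-start transcript is Igfbp2-202, whose coding sequence opens in exon 2, at 72849142. That leaves 474 coding bases of the 915 in Igfbp2-201, so the signal peptide and the amino-terminal end encoded by the first exon are absent from this model. The bases before each start are shown as RefSeq gives them (GRCm38.p6, forward strand), the first for chr1:72824230-72824479 and the second for chr1:72825137-72825321, where the window ends before the GENCODE start of Igfbp2-202. Capitals mark GGGCGG or its reverse complement, the GC box.

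Igfbp2 upstream of the first start: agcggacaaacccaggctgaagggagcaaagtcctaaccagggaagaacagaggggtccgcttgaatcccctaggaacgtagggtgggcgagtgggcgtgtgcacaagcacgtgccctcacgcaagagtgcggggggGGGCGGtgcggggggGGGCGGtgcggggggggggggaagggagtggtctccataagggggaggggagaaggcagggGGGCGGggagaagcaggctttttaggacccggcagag

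Igfbp2 upstream of the second start: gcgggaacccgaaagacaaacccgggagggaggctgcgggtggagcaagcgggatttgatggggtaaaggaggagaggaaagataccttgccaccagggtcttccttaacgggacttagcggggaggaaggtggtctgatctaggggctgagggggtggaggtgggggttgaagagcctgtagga

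The second-start transcript NM_001310659.1 had 4, 6 and 1 counts in control pools 1 to 3 and 174, 231 and 136 counts in PB pools 1 to 3. Each PB pool was far above each control pool, and no other pool lay between them. The first-start transcript NM_008342.3 had 24840, 28071 and 21599 counts in control and 23771, 22433 and 28469 in PB pools, and its groups overlapped. Summed over the pools, the second start had 11 counts in control and 541 in PB, a ratio of 48.0 after scaling for library size. The exact 95% interval of 26.6 to 96.7 treats these counts as independent reads. It covers neither the spread between pools nor the error in how the assembler divides reads among transcripts, which was not tested. The mean of the second-start transcript was 0.0336 CPM ± 0.0208 (SD, n = 3) in control and 1.69 CPM ± 0.529 in PB pools. It was a small part of the gene in both groups: per length, it was 0.00660% to 0.0305% of Igfbp2 in control and 0.676% to 1.45% in PB pools.

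The tests differed on this transcript. In edgeR's quasi-likelihood test the log2 fold change was 5.60 (SE 0.74, 95% interval 3.70 to 7.50), with an unadjusted p of 0.000585 and an FDR of 0.234, which did not pass. It stood at rank 128 of the 51227 transcripts tested by that p. DESeq2's Wald test called it, at a log2 fold change of 5.62 and an FDR of 2.02e-14. Of 10 alternatives run in edgeR, none brought the FDR under the threshold, with a range of 0.119 to 1.00, while the log2 fold change lay between 5.18 and 6.01 over all 11 alternatives. The sum of the surface epithelium markers, given above, also had no overlap, but only by 274.3 CPM in the highest control against 274.4 CPM in the lowest PB pool. Taken singly, 1 of the 4 markers had no overlap. The part of the surface epithelium in this transcript was not tested.

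**Figure D4:**
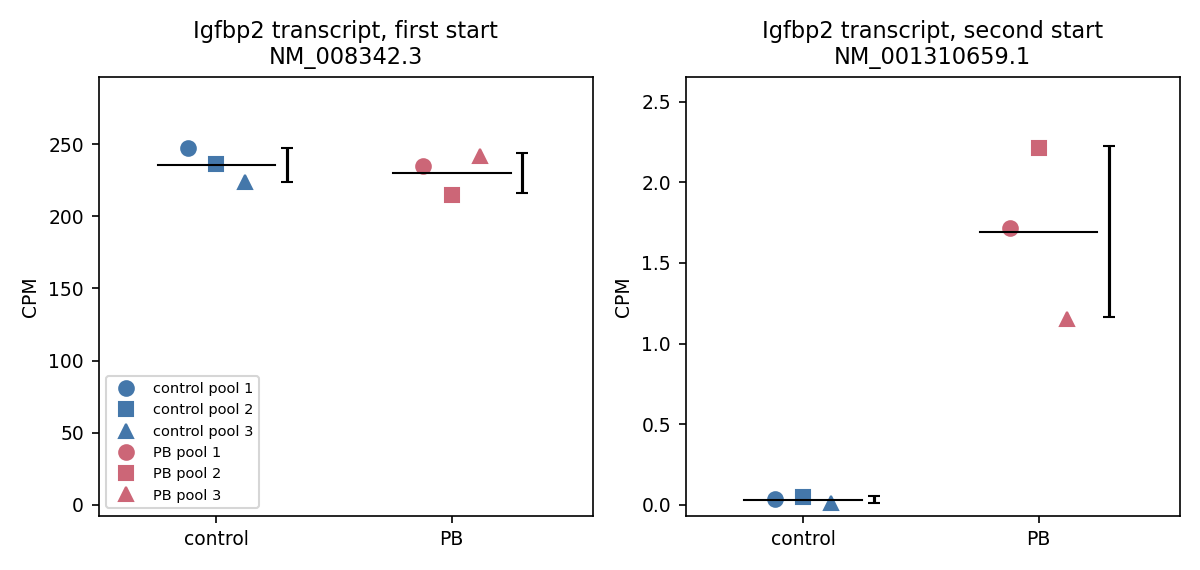
CPM of the Igfbp2 transcripts from the first (left) and second (right) start in each pool, with a line at the group mean and a bar of ± 1 SD beside it, on axes of different range. The first start shows overlapping groups near 230 CPM, and the second start lies near 0 in control and at 1.15 to 2.21 CPM in PB pools.

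Across the 41 transcripts of the axis, edgeR called 0 of the 31 it tested, beside 0.0332% of all transcripts, and 2 of 31 had an unadjusted p under 0.05, beside 3.56%. DESeq2 gave an FDR to 30 of them and called 2, those of Igfbp2 and Irs1 described above, beside 1.85% of all transcripts. Groups did not overlap for 2 of the 31, beside 9.95%: NM_001310659.1 of Igfbp2, and NM_008048.3, which held almost all counts of Igfbp7. Igf1r, Igfbp2, Igfbp3, Igfbp4, Igfbp5, Igfbp7 and Irs2 were each represented by 1 transcript that held over 90% of their counts. For these the transcript and the gene sum gave like log2 fold changes. The p-values of Igfbp7 differed, with an unadjusted p in edgeR of 0.0315 for the gene sum and 0.0939 for NM_008048.3. The interval of this transcript, -0.56 to 0.06, held 0, while that of the gene sum did not. By DESeq2's Wald test the unadjusted p was 0.0205 for the gene sum and 0.0614 for the transcript.

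Promoter windows from RefSeq (GRCm38.p6) were found for 9 of 10 genes, Insr having none, with 2 windows for Igfbp2. Over the 250 bases before the start, all 10 windows had a higher GC content than the median of 32851 windows, 52.4%. Igf1r was richest, at 77.6%, and Igf1, whose window belongs to the class 2 leader, was near the median at 52.8%. The first Igfbp2 window had 67.2% GC and 14 CpG dinucleotides, and the second 56.4% and 11. The GC box (GGGCGG, both strands) was in 5 of the 10 windows, beside 32.7% of all windows: 4 times before Igfbp7, 3 times before the first start of Igfbp2 and 0 times before its second start. A TATA box (TATAAA, both strands) was found before Igfbp4 only among these windows, beside 12.4% of all windows. A CCAAT box (CCAAT, both strands) was found before Igf1 and Irs2, beside 33.8%, and an E box (CACGTG, a palindrome) before Irs1, Irs2 and the first start of Igfbp2, beside 6.02%. These matches describe letters in the window and are not evidence of binding.

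The rest of the pathway was read from a list of 61 further genes, of which 60 were tested. None rose or fell at the thresholds in edgeR or by DESeq2's Wald test. At an unadjusted p under 0.05 in edgeR, 2 were higher and 1 was lower in PB pools. Of all genes tested, 4.46% had such a p, counting both directions. The median log2 fold change of the list was 0.01. Igf2, the main fetal ligand, was far more abundant than Igf1, by 32.4 to 40.6 times in TPM. It was at 2708, 2775 and 2741 CPM in the controls and 2722, 3461 and 2779 CPM in PB pools, and PB 2 alone stood above the rest. The log2 fold change of Igf2 was 0.12 (SE 0.10, FDR 0.888). Of the insulin genes, Ins2 was at 0.320 CPM in the controls and 0.294 CPM in PB pools, and Ins1 did not pass the filter. Igf2r, the scavenger receptor that removes IGF2, had a log2 fold change of -0.02 (FDR 0.966), and Insrr, an orphan relative of the insulin receptor, was at 0.213 CPM in the controls and 0.166 CPM in PB pools.

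Among the other carriers, Igfbpl1, an IGF-binding protein relative, was at 2.47, 2.15 and 2.80 CPM in the controls and 1.46, 1.83 and 1.41 CPM in PB pools. Its groups did not overlap, and its log2 fold change was -0.66 (SE 0.18), with an unadjusted p of 0.00818 and an FDR of 0.888. Igfbp1, Igfbp6 and Igfals had log2 fold changes of -1.21 (FDR 0.888), 0.08 (FDR 0.888) and -0.60 (FDR 0.905). Pappa2, a protease that cleaves Igfbp3 and Igfbp5 products, was at 8.94, 13.1 and 8.95 CPM in the controls and 14.1, 12.9 and 14.6 CPM in PB pools, with control 2 inside the PB range. Its log2 fold change was 0.43 (SE 0.16), with an unadjusted p of 0.0358 and an FDR of 0.888. The related protease Pappa, the protease Htra1 and the stanniocalcins Stc1 and Stc2, which inhibit pappalysins, had log2 fold changes between -0.06 and 0.03. Igfbpl1 and Pappa2 were thus the carrier and the protease with the smallest p, and neither passed.

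Grb10, an imprinted adaptor that restrains both receptors, was at 236, 227 and 246 CPM in the controls and 224, 597 and 524 CPM in PB pools. PB 2 and PB 3 were more than double any control pool while PB 1 was below them all. For Grb10 edgeR gave a log2 fold change of 0.92 with an SE of 0.33, an unadjusted p of 0.0288 and an FDR of 0.888. The other 11 adaptors and phosphatases had log2 fold changes between -0.27 and 0.32. The 11 genes of PI3K and AKT ranged from -0.09 to 0.29 with a median of 0.07, and the 17 effectors of AKT, Foxo and Tsc genes and mTOR components among them, from -0.18 to 0.11 with a median of 0.00. The 3 mRNA-binding proteins of the Igf2bp family and the 4 genes of growth hormone input had medians of 0.03 and -0.09. None of these genes other than Grb10 had an unadjusted p under 0.05.

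**Figure D5:**
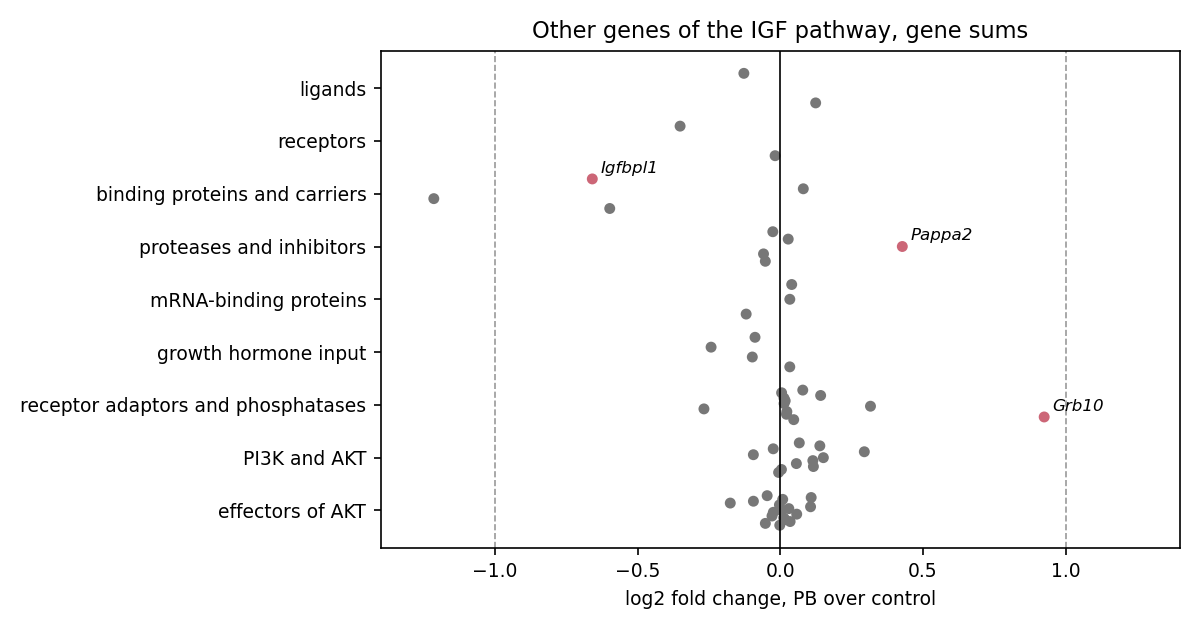
Log2 fold change of the gene sums, PB over control, for 60 further genes of the IGF pathway by sub-list, 1 point per gene, with dashed lines at 2-fold and genes with an unadjusted p under 0.05 in red and named. Most points lie close to 0, and the named genes are Igfbpl1, Pappa2 and Grb10, none of which passed the FDR threshold.

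The genes whose log2 CPM ran most like that of Igf1 over the 6 pools were Pycr1, Sec14l1 and Ttll7, with Pearson r of 0.995, 0.993 and 0.981 among 14781 genes compared. For Igfbp5 they were Bphl, Scarf2 and Adnp, with r of 0.997, 0.990 and 0.986. Spearman rank correlations, in the same order, were 0.943, 1 and 0.829 for Igf1. For Igfbp5 they were 1, 0.943 and 0.486, so Adnp followed the order of the pools least. With 6 pools such values of Pearson r are common: 110 genes had an r over 0.9 with Igf1 and 132 with Igfbp5. All points share the same libraries and depths.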

How the data were processed

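PolyA RNA of pooled E15.5 ovaries was sequenced from stranded libraries. Per the labels and the study's methods, the authors demultiplexed with bcl2fastq 2.17.1.14, aligned with HISAT2 2.1.0 to mm10, assembled transcripts with StringTie 1.3.5 and tested with DESeq2 1.30.0. The deposited counts per transcript, raw and not normalized, were used. The deposited table of comparisons served for gene names, positions and transcript classes, and its 6 columns of normalized values per pool and its fold changes and p-values were not used. Overlapping transcripts of a locus share reads that StringTie apportions, which affects single transcripts more than gene sums: the common biological coefficient of variation was 20.9% for gene sums and 98.4% for transcripts. Transcripts without a gene name (1493) entered no gene sum.

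Counts were summed per gene name and tested in R 4.3.3 with edgeR 4.0.16 (TMM, filterByExpr with a minimum count of 10 and total of 15, quasi-likelihood F-test, Benjamini-Hochberg adjustment over all features, all 3 control and 3 PB pools, no covariate). DESeq2 1.42.0 was an alternative. The code was tested on simulated counts. Isoform classes came from exon structure, with exact permutation tests in SciPy 1.17.1. Exon sequences came from GENCODE vM21 and promoters from RefSeq. Text names all 10 genes, transcripts with at least 10% of their gene's counts in a group or called by either tool, carriers, ligands, receptors and proteases of the pathway list, list genes with an unadjusted p under 0.05, and the 3 genes most like Igf1 and Igfbp5 with a mean of at least 1 CPM. The genes and lists were chosen with earlier results of these data known.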

Additional observations from a re-analysis of the deposited data

How the results depend on the processing

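No gene of the axis was called under any alternative. Genes called in all were 3, and 11 by DESeq2's Wald test, 8 with annotated transcripts only, 0 with the replicate block, and 3 to 9 when 1 pool was left out (9 without PB 2, and 5 without control 1, control 2 or PB 3). Transcripts called were 17, and 1172 by DESeq2, 39 with the stricter filter, 51 at an FDR of 0.1, 0 with the block, and 0 to 19 when 1 pool was left out (0 without control 1, 1 without control 3, 2 without PB 1 and 9 without PB 3). Axis genes with an unadjusted p under 0.05 numbered 1, 0 with the block (Igfbp7 had an unadjusted p of 0.0666), and 0 to 3 when 1 pool was left out (3 without PB 2, Igfbp4, Igfbp7 and Irs2, and 2 without PB 1, Igf1 and Igfbp7). To look for pairs, the deviations of each pool from its group mean, in log2 CPM over the tested genes, were correlated between the groups. In these deviations, and not in the levels themselves, same-numbered pools correlated at 0.0923, 0.239 and 0.0596, so the numbers were not taken as pairs. Control 1 and PB 3 correlated better with each other in this measure, at 0.155, than with their own number. Directions of small differences turned when 1 pool was left out for Igf1r and NM_010513.2 (ranges -0.040 to 0.051 and -0.018 to 0.070), Insr and NM_010568.2 (-0.11 to 0.031 and -0.54 to 0.030), Igfbp2 and NM_008342.3 (-0.067 to 0.016 and -0.080 to 0.013), Igfbp3 and NM_008343.2 (-0.022 to 0.18 and -0.017 to 0.18), Igfbp5 and NM_010518.2 (-0.054 to 0.022 and -0.057 to 0.021), and NM_001314010.1 (-0.026 to 1.19). Irs1 turned to -0.50 with annotated transcripts only, since its assembled transcripts were then left out, and the same setting exchanged Irs1 and Insr in the order of TPM, 2 places in all. Differences of mean isoform shares, in percentage points, depended on single pools: when 1 pool was left out, the class 1 leader ran from -16.4 to 2.59 and the class 2 leader from -0.95 to 20.5, both turning without control 2, the Eb exon from 2.55 to 7.56, and Insr exon 11 from 0.098 without PB 3 to 14.9. Counts were few for the Igfbp2 second start in controls and for several minor transcripts of Igf1, Igfbp3, Igfbp7 and Irs1.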
